A study of Moricandia moricandioides and Moricandia arvensis and Moricandia suffruticosa with 11 samples.

Results

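The disease resistance genes of 3 Moricandia species were followed in mature leaves, as the 182 gene models whose short description holds the words "disease resistance" or "NBS-LRR", out of 33602 models in the table. By their short and full descriptions 101 members were TIR receptors, 22 were CC receptors, 25 were NBS receptors whose class was not told and 3, including ADR1, carried an RPW8 domain by the full text, although their short text gives the CC class. These 151 are called NBS members here. The other 31 were 26 dirigent-like proteins, 1 LRR protein without an NBS domain and 4 models that only share the words. For 5 of the 151, the full description names no NB-ARC domain.

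The tested species were the C3–C4 intermediates M. arvensis line MOR1 (4 plants, numbers 9, 12, 13 and 15) and M. suffruticosa (3 plants, numbers 6, 7 and 8), and they were set against the C3 species M. moricandioides (4 plants, numbers 6, 8, 12 and 15). All plants were untreated, were kept in 1 climate chamber and gave leaves before flowering, the sources used here give no age, and each library came from 1 plant. Each species was 1 seed stock, so that photosynthesis type, species and seed stock cannot be told apart. Values are rpm (the reads of a transcript per 1000000 counted reads of that library) and are listed in the order of the plant numbers above.

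Plants carry intracellular receptors with a nucleotide-binding site (NBS, also NB-ARC) and leucine-rich repeats (LRR), which detect pathogen effectors or the damage that effectors do to host proteins. TIR receptors begin with a Toll/interleukin-1 receptor domain and in Arabidopsis signal through lipase-like EDS1 complexes, while CC receptors begin with a coiled coil. Receptors with an RPW8-type start, such as ADR1, act downstream of other receptors as helpers. The genes often lie in tandem clusters of similar copies and differ in number between species and even between accessions. Dirigent proteins, in contrast, are extracellular proteins that guide the coupling of phenoxy radicals.

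The libraries held 10987959 to 14865167 counted reads, with a median of 13422102. The leaf label fitted its markers in part, since RBCS1A, RBCS3B and CA1 stood at 3033 rpm or more in every plant, while the root genes NRT2.1 and CASP1 stayed at 1.64 rpm or less. LHCB1.3 and GAPA, which any green leaf uses, were listed at 0 in all 11 libraries, and so a member listed at 0 cannot be called silent. The root phosphate transporter PHT1.4 was at 1.11 to 146 rpm. M. arvensis plants 13 and 15 (r = 0.989 over log values of all transcripts) and M. suffruticosa plants 6 and 7 (r = 0.990) were closer to each other than all other pairs within a species (r up to 0.968). They still differed by more than sampling noise, with a chi-square per gene of 4.78 and 8.26, and were kept as separate plants.

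Reads were found for 104 of the 182 members, and 78 (42.9%) had 0 reads in all 11 libraries. Among all protein-coding models that share was 30.7%. With 1 read in any plant of a species taken as enough, 103 members were found in M. arvensis, 103 in M. suffruticosa and 103 in M. moricandioides. The members without reads were mostly members of Arabidopsis gene clusters, here runs of members whose locus numbers are at most 100 apart. In 46 such clusters with 125 members, 67 members (53.6%) had no read, against 11 (19.3%) of the 57 members that stood alone. Just 1 member held all the reads in 26 of the 46 clusters. On Arabidopsis chromosome 4, RPP4 (AT4G16860) alone held the 343 reads of a cluster of 8 that ends at AT4G16990. The 7 TIR members from AT5G45200 to AT5G45260 on chromosome 5 had no reads at all. Reads were assigned to Arabidopsis models across species, and for 167 members the most similar other Arabidopsis protein was another member, so that reads of similar copies may be exchanged between members.

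The 110979 reads of all members were spread unevenly, since 5 members held 27.5% of them and 10 members held 40.9%. The 5 were AT1G61100, a protein annotated only as a putative TIR class protein, EDR2, AT1G58602, CSA1 and AT5G11250. For testing, 95 members had enough reads, namely 52 TIR, 14 CC, 17 NBS with no class told, 1 RPW8 and 8 dirigent-like members and 3 others, while 9 members with reads were too low. The tested members had a median of 731 reads over the 11 libraries, against 1985.5 for all tested transcripts. Their spread between plants was also larger, as the median biological coefficient of variation of edgeR was 0.298 for NBS members and 0.224 for all transcripts.

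The TIR members summed to 329, 525, 669 and 681 rpm in M. arvensis and to 343, 415 and 466 rpm in M. suffruticosa, against 318, 341, 263 and 234 rpm in M. moricandioides. The means were 551 ± 164 (SD, n = 4), 408 ± 62.0 (n = 3) and 289 ± 49.2 rpm (n = 4). M. arvensis plant 9 lay within the range of M. moricandioides, while every M. suffruticosa plant lay above it. AT1G61100, counted as TIR by its short description alone, gave 58.8, 113 and 106 rpm of the 3 TIR means. In M. arvensis plant 9 it gave 45.2 rpm, against 82.2 to 128 rpm in the M. moricandioides plants. With AT1G61100 left out of the TIR sums, plant 9 also lay above every M. moricandioides plant. The CC members summed to 146, 200, 237 and 248 rpm in M. arvensis and to 95.8, 103 and 62.5 rpm in M. suffruticosa, against 95.1, 104, 69.6 and 84.6 rpm in M. moricandioides. All 4 M. arvensis plants thus stood above the plants of both other species, which overlapped each other. The CC sums include the similar members RPP8, AT1G53350, AT5G35450 and AT5G48620, described below. Each of these averaged 16.1 to 36.6 rpm in M. arvensis and 4.55 to 9.71 rpm in M. suffruticosa, against 0.0714 to 0.988 rpm in M. moricandioides. The order of the CC sums rests on these members. With them left out of the rpm sums, M. arvensis plants 9 and 12 lay within the range of M. moricandioides. Plants 13 and 15 still lay above it, and every M. suffruticosa plant lay below it.

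The NBS members with no class told gave another order. This group comes from the wording of the descriptions and is not a receptor class of its own. They summed to 98.1, 181, 217 and 224 rpm in M. arvensis and to 62.2, 76.2 and 72.4 rpm in M. suffruticosa, against 164, 146, 91.3 and 114 rpm in M. moricandioides. Here M. suffruticosa was the lowest species, with each plant below all others. The 26 dirigent-like members averaged 36.1 ± 4.11 rpm in M. arvensis (n = 4), 45.1 ± 5.14 rpm in M. suffruticosa (n = 3) and 35.4 ± 2.39 rpm in M. moricandioides (SD, n = 4). Every M. suffruticosa plant, at 39.3 rpm or more, was above the plants of both other species, but not after the TMM scaling described next, where the species overlapped. Reads were not corrected for transcript length, so that the levels of classes or genes are compared between plants and not with each other.

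**Figure D1:**
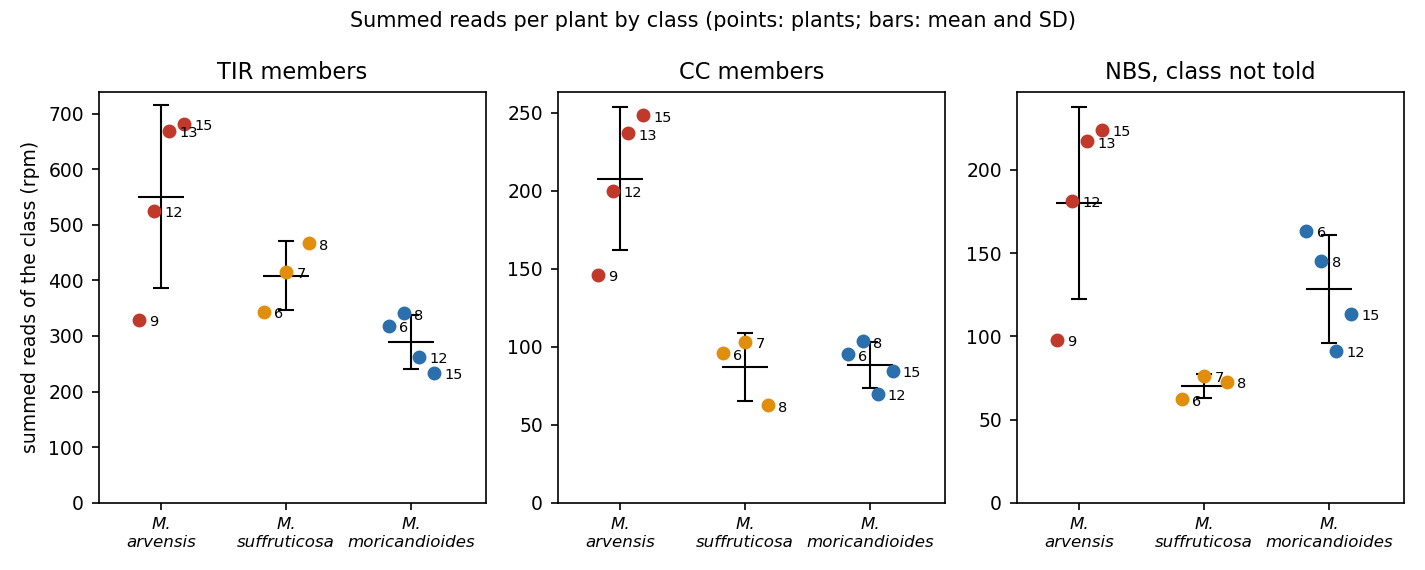
Summed reads of the TIR members, the CC members and the NBS members with no class told in each plant, in rpm on linear axes that start at 0, with a panel per group; points are single plants with their numbers, horizontal bars are species means and whiskers are SDs. TIR and CC sums are highest in M. arvensis plants 12, 13 and 15 (525 to 681 rpm and 200 to 248 rpm), and in the class not told the 3 M. suffruticosa plants (62.2 to 76.2 rpm) are the lowest.

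M. arvensis plant 9 stood apart from the other M. arvensis plants in these sums. It was the lowest plant of its species for 67 of the 84 tested NBS members (79.8%), and also for 62.9% of all tested transcripts. After scaling with the TMM factors of edgeR, in which plant 9 had a factor of 0.834 and the others 1.04 to 1.17, it was the lowest for 50 of the 84 members (59.5%), against 34.2% of all transcripts. The TMM-scaled TIR sums of M. arvensis were 394, 505, 574 and 590, and plant 9 was still the lowest of the 4 but stood above every M. moricandioides plant (256 to 335). The tests use this scaling.

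Between M. arvensis and M. moricandioides, 48 of the 95 tested members passed the edgeR quasi-likelihood test at an adjusted p of 0.01, and 41 of them (43.2%) were higher and 7 (7.4%) lower in M. arvensis. Among all 15570 tested transcripts 35.0% passed, 18.2% higher and 16.7% lower. The median log2 fold change was 0.71 for the members and 0.02 for all transcripts. The plants of the 2 species did not overlap in rpm for 39 of the 41 higher members and for all 7 lower ones. Called or not, 40 members (42.1%) were higher and 8 (8.4%) lower without overlap, against 23.3% and 16.8% of all transcripts. With library totals in place of TMM the median of all transcripts moved by 0.13 to 0.16 and that of the members to 0.84, and the counts were the same. By class, 27 of 52 TIR members were higher and 3 lower, 7 of 14 CC members were higher and 2 lower, and 5 of 17 members with no class told were higher and 2 lower. Of the 8 dirigent-like members none passed with edgeR, against 4 at an unadjusted p of 0.05, none with DESeq2 and 2 with limma-voom.

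Between M. suffruticosa and M. moricandioides, 26 of the 95 members passed, with 14 (14.7%) higher and 12 (12.6%) lower in M. suffruticosa. Of all transcripts 18.9% passed, 10.1% higher and 8.82% lower, and the medians were 0.24 for the members and 0.01 for all. None of the 26 overlapped. Called or not, 30 members (31.6%) were higher and 16 (16.8%) lower without overlap, against 24.6% and 17.0% of all transcripts. Of the TIR members 7 were higher and 1 lower, of the CC members 5 were higher and 3 lower, and of those with no class told 2 were higher and 6 lower, with class medians of 0.46, -0.20 and -0.89. Without M. suffruticosa plant 7 the count was 17, and with the close pairs of plants each summed to 1 it was 13. Both intermediates were set against the same 4 M. moricandioides plants, so these counts are not independent of those above.

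Between the intermediates, 22 of the 95 members passed, with M. arvensis higher for 21 (22.1%) and M. arvensis lower for 1 (1.1%). Of all transcripts 19.3% passed, 9.4% higher and 9.92% lower. The median was 0.75 for the members and 0.01 for all, and the species did not overlap in any of the 22. Called or not, 41 members (43.2%) were higher and 2 (2.1%) lower without overlap, against 19.8% and 18.3% of all transcripts. With the close pairs summed the count was 12. The 1 lower member was AT1G61100. Higher were 6 TIR, 7 CC and 7 members with no class told, and 1 dirigent-like member.

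Of the 95, 4 members (RPP13, AT3G46710, AT5G36930 and AT5G49140) reached the read minimum only in M. arvensis plants and so were tested because they were high there. Without them the counts were 37 higher and 7 lower for M. arvensis against M. moricandioides and 18 higher and 1 lower for M. arvensis against M. suffruticosa. When similar members were joined, either as locus clusters or by best match, the direction stayed as it was. Against M. moricandioides, 35 of 80 tested clusters were higher and 6 lower in M. arvensis, and 13 were higher and 10 lower in M. suffruticosa (15 in all without M. suffruticosa plant 6 or plant 7). Joined by best match, 46 families were tested and 19 were higher and 5 lower in M. arvensis, while 6 were higher and 5 lower in M. suffruticosa.

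**Figure D2:**
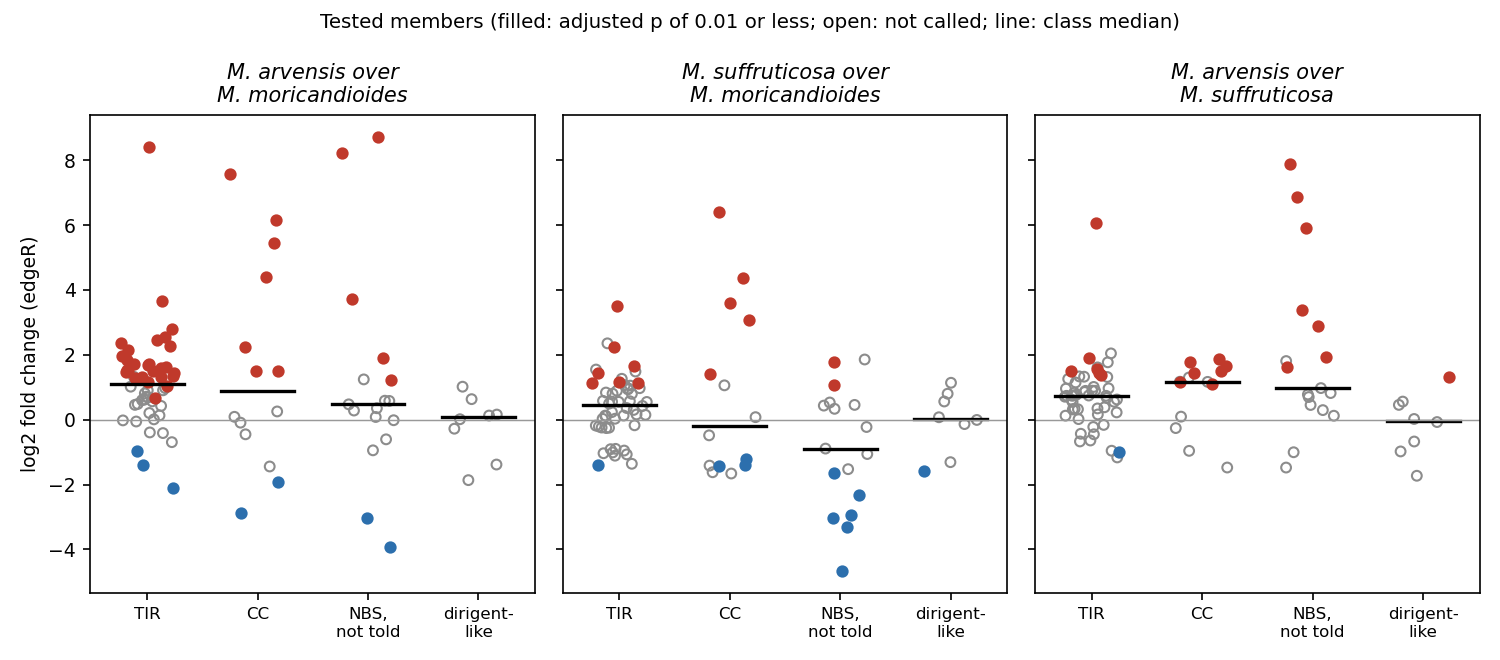
Log2 fold change (edgeR) of the tested TIR, CC, NBS with no class told and dirigent-like members, 91 of the 95, in 3 panels, one per comparison; filled points passed at an adjusted p of 0.01 (red higher, blue lower), open points did not, and black lines are class medians. The TIR median is 1.101 for M. arvensis over M. moricandioides and 0.46 for M. suffruticosa over M. moricandioides, and the lowest values for M. suffruticosa over M. moricandioides belong to members with no class told.

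Over the 3 comparisons, the most frequent pattern among the called members was to be higher in M. arvensis than in M. moricandioides and to pass in no other comparison. It was found for 19 members (20.0%, against 7.03% of all transcripts), 16 of them TIR. A further 10 (10.5%, against 4.77%) were higher in M. arvensis than in both other species and did not pass between those. Among the 10 are RPP13, AT3G46710 and AT5G36930, whose pattern the read minimum had fixed. Of the 91 members that reached the minimum in more than 1 species, 18 (19.8%, against 6.89% of all such transcripts) had the pattern of the 19 and 7 (7.7%, against 4.33%) that of the 10. The pattern of being common to both intermediates, that is called in both in the same direction and not between them, was found for 9 higher members (9.5%, against 5.2%) and 3 lower ones (3.2%, against 4.53%). Counting also those called between the intermediates, 12 members were higher in both (12.6%, against 6.13%), and 3 were lower in both (3.2%, against 5.37%). A group of 8 members (8.4%, against 1.66%) was lower in M. suffruticosa than in both other species. Another 36 members (37.9%, against 54.5%) passed in no comparison.

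**Figure D3:**
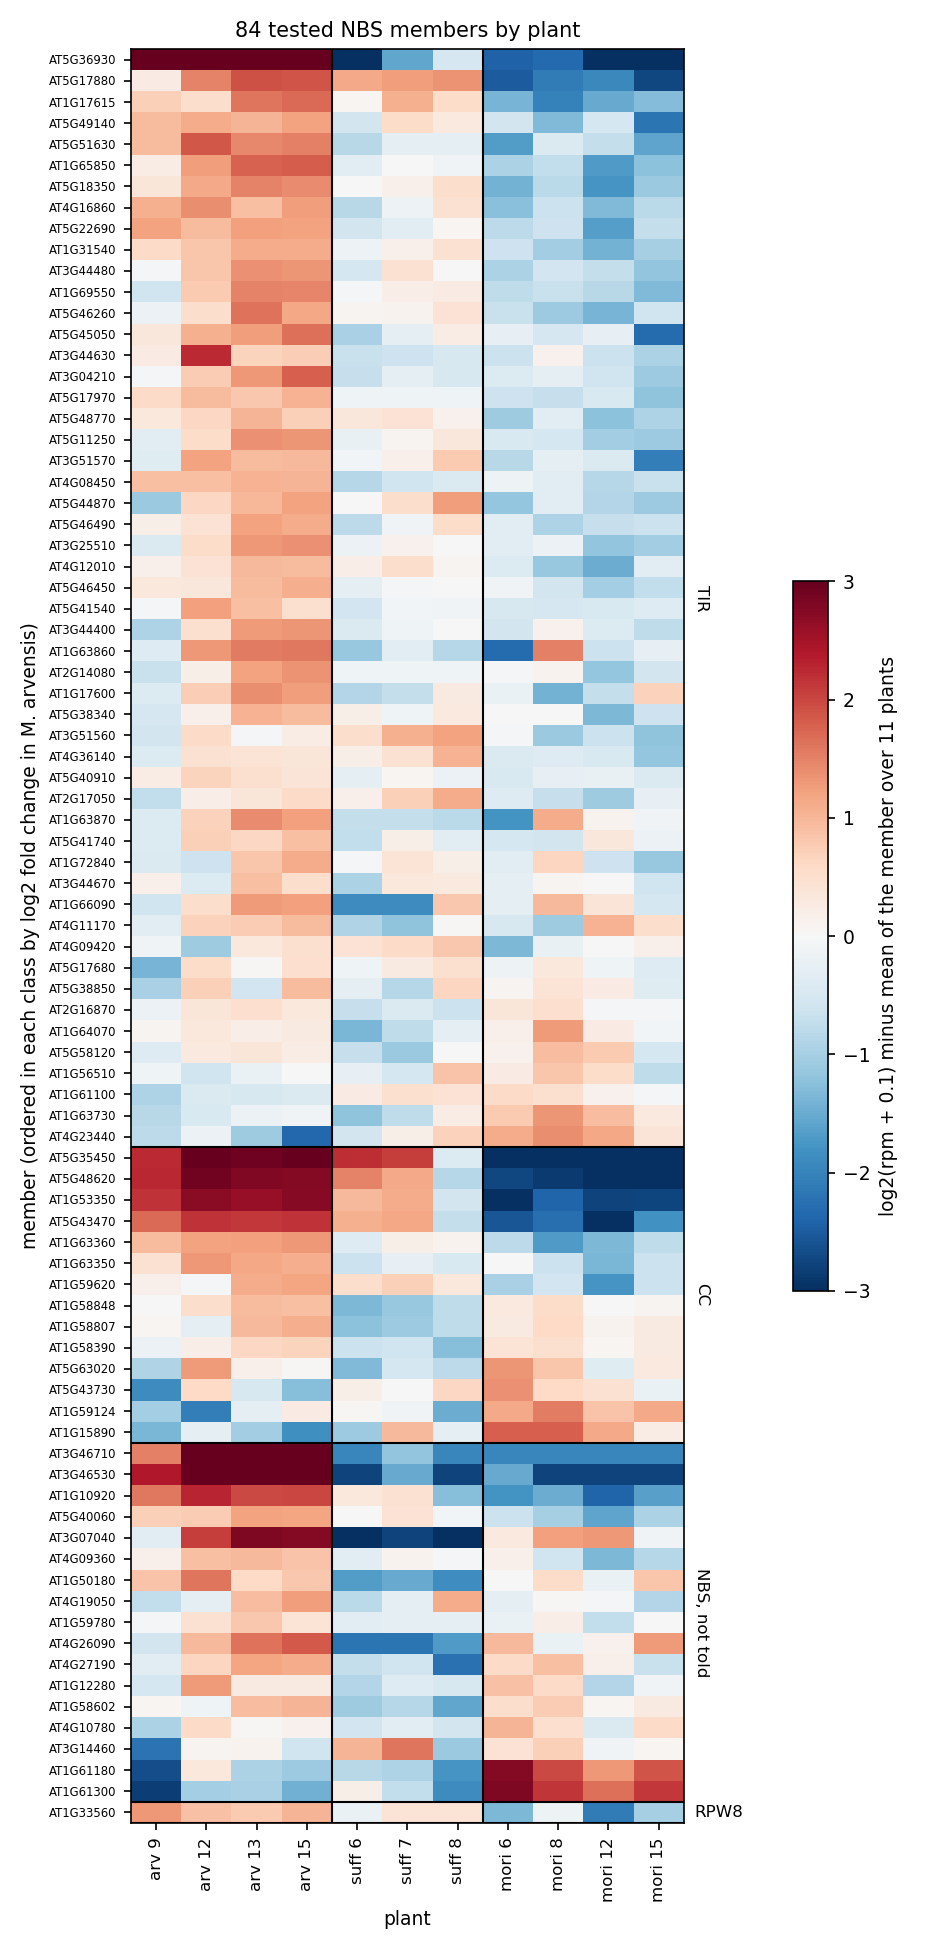
The 84 tested NBS members by plant, as log2(rpm + 0.1) minus the mean of the member over the 11 plants (red above, blue below, colours end at 3 and -3), ordered within each class by the fold change of M. arvensis over M. moricandioides. Red prevails in the M. arvensis columns 12, 13 and 15 for TIR members, column 9 is paler, and the members at the foot of the CC and not-told blocks are red in M. moricandioides.

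Among the TIR members, CSA1 (AT5G17880, named after a shade avoidance mutant and encoding a TIR-NBS-LRR receptor) had the most reads of those higher in both intermediates. CSA1 stood at 17.6, 41.9, 56.0 and 55.8 rpm in M. arvensis and at 32.6, 35.6 and 38.2 rpm in M. suffruticosa, against 2.57, 3.43, 3.84 and 2.15 rpm in M. moricandioides. The intermediates overlapped each other and were both clear of M. moricandioides. The log2 fold change was 3.65 ± 0.28 (SE, edgeR adjusted p = 2.29e-06) in M. arvensis and 3.49 ± 0.29 (edgeR adjusted p = 1.15e-05) in M. suffruticosa. Between the intermediates CSA1 passed with limma-voom (0.449, adjusted p = 0.00815) but not with edgeR (adjusted p = 0.671).

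Another TIR member of this pattern was AT5G18350, at 21.9, 37.9, 48.4 and 45.9 rpm in M. arvensis and 17.1, 19.1 and 24.6 rpm in M. suffruticosa, against 6.32, 9.71, 4.93 and 7.87 rpm in M. moricandioides. Again no plant of an intermediate reached down to M. moricandioides. Its log2 fold changes were 2.26 ± 0.23 and 1.43 ± 0.23 (SE, edgeR adjusted p = 1.16e-05 and 0.000753). AT1G17615, a TIR-NBS protein, was much scarcer, with 27 to 70 reads per plant in M. arvensis and 24 to 50 in M. suffruticosa, against 4 to 9 reads in M. moricandioides, and its log2 fold changes were 2.80 and 2.25. AT1G31540 (1.83 and 1.12) and AT5G48770 (1.497 and 1.16) were the other TIR members common to both. The M. suffruticosa call of AT5G48770 was lost when any of 8 plants was left out (adjusted p = 0.0283 without M. suffruticosa plant 7). That of AT1G31540 was lost with the close pairs summed (adjusted p = 0.0106). AT5G40060, an NBS member with no class told, was also common to both, at 1.90 and 1.08. Without M. suffruticosa plant 7, the M. suffruticosa value of AT5G40060 was 0.94 (edgeR adjusted p = 0.0181). Between the intermediates, AT5G18350, AT1G31540 and AT5G40060 did not pass with edgeR (adjusted p = 0.0158, 0.0241 and 0.0109). M. arvensis was higher there with DESeq2 (adjusted p = 0.00377, 0.00824 and 0.00125) and limma-voom (4.87e-06, 4.08e-05 and 0.000223). The intermediates did not overlap in AT1G31540 and AT5G40060.

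AT5G36930 was the TIR member with the steepest difference. It had 133, 105, 348 and 278 reads in M. arvensis and 0, 3 and 6 reads in M. suffruticosa, against 1, 1, 0 and 0 reads in M. moricandioides. M. arvensis thus stood alone, at 9.36 to 25.9 rpm. The read ratio of M. arvensis over M. suffruticosa was 76.9, with a 95% exact interval of 40.3 to 169 that covers counting error only.

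The named downy mildew receptors RPP1 (AT3G44480) and RPP4 (AT4G16860), which in Arabidopsis confer resistance to Hyaloperonospora, were higher in M. arvensis against M. moricandioides. RPP1 had 2.03, 3.83, 5.59 and 5.43 rpm in M. arvensis, against 1.04, 1.39, 1.23 and 0.875 rpm in M. moricandioides, and 1.42, 2.90 and 2.09 rpm in M. suffruticosa. RPP4 had 4.23, 5.35, 3.8 and 4.83 rpm in M. arvensis, against 0.764, 1.22, 0.724 and 1.08 rpm in M. moricandioides, and 1.06, 1.77 and 2.73 rpm in M. suffruticosa. For both, every M. arvensis plant was above every M. moricandioides plant, with log2 fold changes of 1.73 ± 0.31 and 2.15 ± 0.34 (SE, edgeR adjusted p = 0.000694 and 0.00028). The differences of M. suffruticosa to M. moricandioides, 0.84 and 0.89, did not pass (edgeR adjusted p = 0.0718 and 0.0797). Whether the difference to M. arvensis was larger was tested between the intermediates and did not pass with edgeR for either (adjusted p = 0.05 for RPP1 and 0.0159 for RPP4). It passed for RPP4 with DESeq2 (1.27, adjusted p = 0.00459) and limma-voom (1.36, 0.000212), and for RPP1 with limma-voom (1.07, 0.00125). Without M. suffruticosa plant 8, RPP4 was higher in M. arvensis than in M. suffruticosa by 1.68 (edgeR adjusted p = 0.00542).

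TTR1 (AT5G45050), a receptor with a WRKY domain that is known for tolerance to tobacco ringspot virus, had 16.1, 26.6, 30.1 and 40.2 rpm in M. arvensis, against 10.7, 8.89, 10.6 and 2.49 rpm in M. moricandioides. The species did not overlap and the log2 fold change was 1.63 ± 0.39 (SE, edgeR adjusted p = 0.00416), but the call was lost without M. moricandioides plant 8 (adjusted p = 0.0141) or M. arvensis plant 15 (adjusted p = 0.0142). In M. suffruticosa TTR1 was at 6.37, 10.3 and 14.8 rpm, which overlapped M. moricandioides. AT5G11250, one of the 5 members with most reads, had a log2 fold change of 1.47 ± 0.26 in M. arvensis (SE, edgeR adjusted p = 0.000695), with 16.8 to 54.2 rpm against 9.75 to 15.3 rpm in M. moricandioides. AT4G12010 likewise had 1.28 ± 0.24 (SE, edgeR adjusted p = 0.000962). In M. suffruticosa AT4G12010 had 0.96, which did not pass (edgeR adjusted p = 0.013) but did without M. moricandioides plant 15 (adjusted p = 0.00591), with DESeq2 (0.00441) and with limma-voom (0.00103).

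WRR4 (AT1G56510), which confers resistance to white rust in Arabidopsis, and RLM1 (AT1G64070), which confers resistance to Leptosphaeria maculans, passed in no comparison with edgeR. WRR4 had 0.535 to 0.862 rpm in M. arvensis and 0.566 to 1.64 rpm in M. suffruticosa, against 0.471 to 1.63 rpm in M. moricandioides. RLM1 had 2.11 to 2.50 rpm in M. arvensis and 0.708 to 1.64 rpm in M. suffruticosa, against 1.88 to 4.98 rpm in M. moricandioides. For RLM1, M. suffruticosa was below both other species in every plant, with a log2 fold change of -1.36 against M. moricandioides (edgeR adjusted p = 0.0188, DESeq2 adjusted p = 0.00589, limma-voom adjusted p = 0.00126). Between the intermediates RLM1 passed with limma-voom only (1.11, adjusted p = 0.00369). AT1G17600 and AT5G44870 did not pass with edgeR either. AT1G17600 passed with limma-voom against M. moricandioides (1.44, adjusted p = 0.00339) and between the intermediates (1.83, 7.52e-05). AT5G44870 passed with DESeq2 in M. arvensis and M. suffruticosa (adjusted p = 0.00477 and 0.00435). AT5G44870 had edgeR log2 fold changes of 1.32 and 1.49 in the intermediates, and without M. arvensis plant 9 both passed (1.57 and 1.48, edgeR adjusted p = 0.0016 and 0.00381). The M. arvensis value also passed without M. suffruticosa plant 8 (adjusted p = 0.00976).

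Within the CC class, RPP8 (AT5G43470) and 3 close relatives of it had the steepest differences between M. arvensis and M. moricandioides, and the related LOV1 (AT1G10920) is described with them. RPP8 recognises Hyaloperonospora in Arabidopsis, and LOV1 confers sensitivity to the fungal toxin victorin. The 5 (RPP8, AT5G48620, AT5G35450, AT1G53350 and LOV1) were put together after their values were seen, and LOV1 is annotated with no class. The best match of each of them in Arabidopsis is another of the 5, so that their reads may be exchanged. Their sum was 83.7 to 130 rpm in M. arvensis and 12.3 to 47.4 rpm in M. suffruticosa, against 2.46 to 4.16 rpm in M. moricandioides. The species therefore stood in 3 separate steps, with means of 113 ± 20.3 (n = 4), 35.7 ± 20.3 (n = 3) and 3.39 ± 0.835 rpm (SD, n = 4).

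AT1G53350 had 353, 450, 504 and 476 reads in M. arvensis and 168, 186 and 45 reads in M. suffruticosa, against 5, 13, 11 and 12 reads in M. moricandioides. AT5G48620 had 151, 209, 231 and 196 reads in M. arvensis and 98, 77 and 14 reads in M. suffruticosa, against 4, 3, 3 and 1 reads in M. moricandioides. In both, no species overlapped another. LOV1 followed the same order, with 15.3, 24.96, 20.0 and 20.3 rpm in M. arvensis and 6.23, 6.93 and 2.00 rpm in M. suffruticosa, against 1.39, 1.71, 0.869 and 1.55 rpm in M. moricandioides. These 3 were the members that passed in all 3 comparisons (2.31% of all transcripts passed in all 3). The log2 fold changes against M. moricandioides were 5.46 ± 0.37, 6.14 ± 0.50 and 3.74 ± 0.33 in M. arvensis and 3.60 ± 0.38, 4.38 ± 0.53 and 1.79 ± 0.35 (SE) in M. suffruticosa for AT1G53350, AT5G48620 and LOV1. The M. suffruticosa call of LOV1 was lost without M. suffruticosa plant 6 (edgeR adjusted p = 0.0128) or plant 7 (0.0139). Between the intermediates, the call of AT5G48620 (1.77, edgeR adjusted p = 0.00503) was lost without M. suffruticosa plant 7 (adjusted p = 0.0189) or any one of M. arvensis plants 12, 13 and 15 (0.0103 to 0.0134).

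RPP8 itself stood at 18.1, 24.9, 24.1 and 24.8 rpm in M. arvensis and 11.5, 12.3 and 3.28 rpm in M. suffruticosa, against 0.834, 1.06, 0.580 and 1.48 rpm in M. moricandioides. The log2 fold changes of RPP8 were 4.39 ± 0.39 and 3.09 ± 0.39 (SE, edgeR adjusted p = 4.99e-06 and 0.000157), and the difference between the intermediates, 1.3, did not pass with edgeR (adjusted p = 0.013) but did with DESeq2 (0.00232) and limma-voom (0.000296). AT5G35450 had 139, 235, 232 and 224 reads in M. arvensis and 151, 136 and 18 reads in M. suffruticosa, against 1, 1, 0 and 2 reads in M. moricandioides. Read ratios to M. moricandioides were 234 (95% exact interval 91.1 to 862) in M. arvensis and 108 (41.6 to 397) in M. suffruticosa. Between the intermediates AT5G35450 passed with limma-voom (0.841, adjusted p = 0.00632) but not with edgeR (adjusted p = 0.0581). M. suffruticosa plant 8 was the lowest plant of its species in all 5.

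The make-up of this sum differed between the species as well. AT5G35450 gave 13.0 to 16.2% of it in M. arvensis and 13.3 to 22.6% in M. suffruticosa, but at most 3.33% in M. moricandioides. LOV1 gave 16.6 to 19.3% in M. arvensis and 13.2 to 16.3% in M. suffruticosa, against 35.3 to 47.6% in M. moricandioides. RPP8 gave 19.2 to 21.6% in M. arvensis and 24.4 to 26.7% in M. suffruticosa, against 23.5 to 36.7% in M. moricandioides. AT5G48620 gave 13.8 to 14.8% in M. arvensis and 10.4 to 14.7% in M. suffruticosa, against 1.67 to 9.52% in M. moricandioides. The shares of AT1G53350 overlapped, with 31.0 to 33.5% in M. arvensis and 25.1 to 33.3% in M. suffruticosa, against 11.9 to 32.4% in M. moricandioides. The M. moricandioides shares rest on just 34 to 60 reads per plant. RPM1 and AT1G50180 are linked to these 5 by best match, and with them the family of 7 summed to 129 ± 26.9 rpm in M. arvensis (n = 4) and 36.3 ± 20.4 rpm in M. suffruticosa (n = 3), against 9.95 ± 2.09 rpm in M. moricandioides (SD, n = 4). Without the 5, the NBS members summed to 829 ± 251 rpm in M. arvensis (n = 4) and to 532 ± 69.7 rpm in M. suffruticosa (n = 3), against 503 ± 90.04 rpm in M. moricandioides. With them, the sums were 942 ± 267, 568 ± 56.5 and 506 ± 90.26 rpm.

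**Figure D4:**
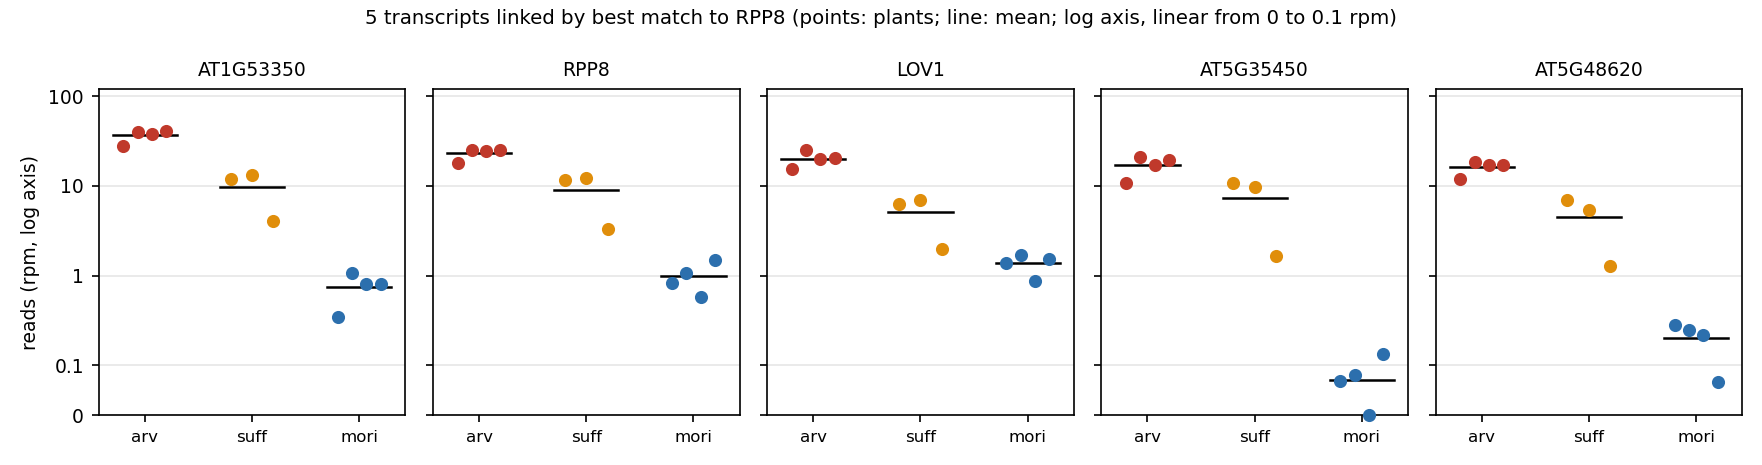
Reads of RPP8 and its 4 close relatives in each plant, in rpm on a log axis that is linear from 0 to 0.1, with a panel per member; points are plants of M. arvensis (arv), M. suffruticosa (suff) and M. moricandioides (mori), and lines are species means. In AT1G53350, AT5G48620 and LOV1 the 3 species form separate steps, while AT5G35450 is at 0.135 rpm or less in every M. moricandioides plant.

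CW9 (AT1G59620) was the remaining CC member common to both intermediates. It stood at 14.6, 12.8, 28.4 and 30.1 rpm in M. arvensis and 19.0, 21.6 and 16.3 rpm in M. suffruticosa, against 6.60, 8.73, 3.77 and 8.34 rpm in M. moricandioides. The intermediates overlapped each other but not M. moricandioides, with log2 fold changes of 1.49 ± 0.27 and 1.399 ± 0.29 (SE, edgeR adjusted p = 0.000754 and 0.00298). The M. suffruticosa call was lost without M. suffruticosa plant 6 (adjusted p = 0.0117), plant 7 (0.0145) or M. moricandioides plant 6 (0.0102).

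CW9 belongs to a stretch of 10 members on Arabidopsis chromosome 1, from AT1G58390 to AT1G59780, of which 7 were tested. In 4 of these, AT1G58390, AT1G58602, AT1G58807 and AT1G58848, the M. suffruticosa plants were below all plants of both other species. AT1G58602, which had the most reads of the stretch, was at 28.5, 24.9, 52.4 and 55.9 rpm in M. arvensis and 13.1, 15.0 and 9.19 rpm in M. suffruticosa, against 39.9, 46.2, 28.5 and 33.1 rpm in M. moricandioides. The 4 had log2 fold changes of -1.64 to -1.21 in M. suffruticosa and of -0.09 to 0.25 in M. arvensis, both against M. moricandioides. M. arvensis was higher than M. suffruticosa by 1.11 to 1.64, and all 4 passed between the intermediates. AT1G59124 was instead below M. moricandioides in both intermediates, with 18, 7, 33 and 41 reads, and had 43, 39 and 11 reads in M. suffruticosa, against 96, 108, 75 and 98 reads in M. moricandioides. The intermediates overlapped. On the log2 scale it differed by -1.92 ± 0.41 in M. arvensis (SE, edgeR adjusted p = 0.00204) and -1.66 ± 0.44 in M. suffruticosa, where it did not pass with edgeR (adjusted p = 0.0126) but passed with DESeq2 (0.0009). The best match of AT1G59124 is AT1G58807, so reads of the stretch may be exchanged too.

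RPM1 and RPS2 are the receptors that in Arabidopsis monitor the host protein RIN4 and detect Pseudomonas syringae effectors acting on it. RPM1 (AT3G07040) had 26, 124, 245 and 206 reads in M. arvensis and 2, 4 and 1 reads in M. suffruticosa, against 45, 75, 88 and 35 reads in M. moricandioides. RPS2 (AT4G26090) had 17, 45, 85 and 86 reads in M. arvensis and 5, 5 and 6 reads in M. suffruticosa, against 58, 21, 30 and 74 reads in M. moricandioides. M. suffruticosa was below every plant of both other species in each, while M. arvensis and M. moricandioides overlapped.

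The log2 fold change of RPM1 was -4.67 ± 0.80 in M. suffruticosa against M. moricandioides (SE, edgeR adjusted p = 0.000971), and M. arvensis was higher than M. suffruticosa by 5.91 ± 0.79 (edgeR adjusted p = 0.000219). For RPS2 these values were -3.03 ± 0.59 and 3.38 ± 0.59 (SE, edgeR adjusted p = 0.00219 and 0.00119). The M. suffruticosa call of RPS2 was lost without M. suffruticosa plant 6 (adjusted p = 0.0146) or 7 (0.0148), and with the close pairs summed the call between the intermediates was lost as well (0.0152). Between M. arvensis and M. moricandioides, RPM1 had 1.24 (edgeR adjusted p = 0.0486) and passed without M. arvensis plant 9 (1.55, adjusted p = 0.00232) and with limma-voom (1.72, 0.00286), and RPS2 had 0.35 (adjusted p = 0.518). The transcript of RIN4 passed in neither comparison, with 25.7 to 48.4 rpm in M. arvensis and 28.8 to 42.6 rpm in M. suffruticosa, against 34.8 to 56.6 rpm in M. moricandioides, and log2 fold changes of -0.28 and -0.31.

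AT1G50180 shared the pattern of RPM1 and RPS2. It had 2.97, 5.08, 2.46 and 2.84 rpm in M. arvensis and 0.425, 0.495 and 0.364 rpm in M. suffruticosa, against 1.597, 2.37, 1.38 and 2.89 rpm in M. moricandioides. M. arvensis was higher than M. suffruticosa by 2.90 ± 0.43 (SE, edgeR adjusted p = 0.000448), and M. suffruticosa differed from M. moricandioides by -2.31 (edgeR adjusted p = 0.00179), a call that was lost without M. suffruticosa plant 6 (0.0111).

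RPP13 (AT3G46530), a further Hyaloperonospora receptor, and AT3G46710 lie close together on Arabidopsis chromosome 3 and had nearly all their reads in M. arvensis. RPP13 had 45, 177, 282 and 250 reads in M. arvensis and 0, 2 and 0 reads in M. suffruticosa, against 2, 0, 0 and 0 reads in M. moricandioides. AT3G46710 had 13, 39, 95 and 73 reads in M. arvensis and 0, 1 and 0 reads in M. suffruticosa, against 0 reads in all 4 plants of M. moricandioides. Plant 9 was the lowest M. arvensis plant in both, yet above every plant of the other species.

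The read ratio of RPP13 was 426 in M. arvensis over M. moricandioides (95% exact interval 117 to 3520) and 302 over M. suffruticosa (83.3 to 2498). AT3G46710 was at least 82.8-fold higher in M. arvensis than in M. moricandioides, taking 3 reads over the group as the limit that 0 reads allow, and its ratio over M. suffruticosa was 176 (31.3 to 6990). It was the 1 member with 0 reads in a whole species and 10 or more in every plant of another, a pattern found for 0.392% of all transcripts. Both share AT3G46730 as best match, so that their reads may be exchanged.

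**Figure D5:**
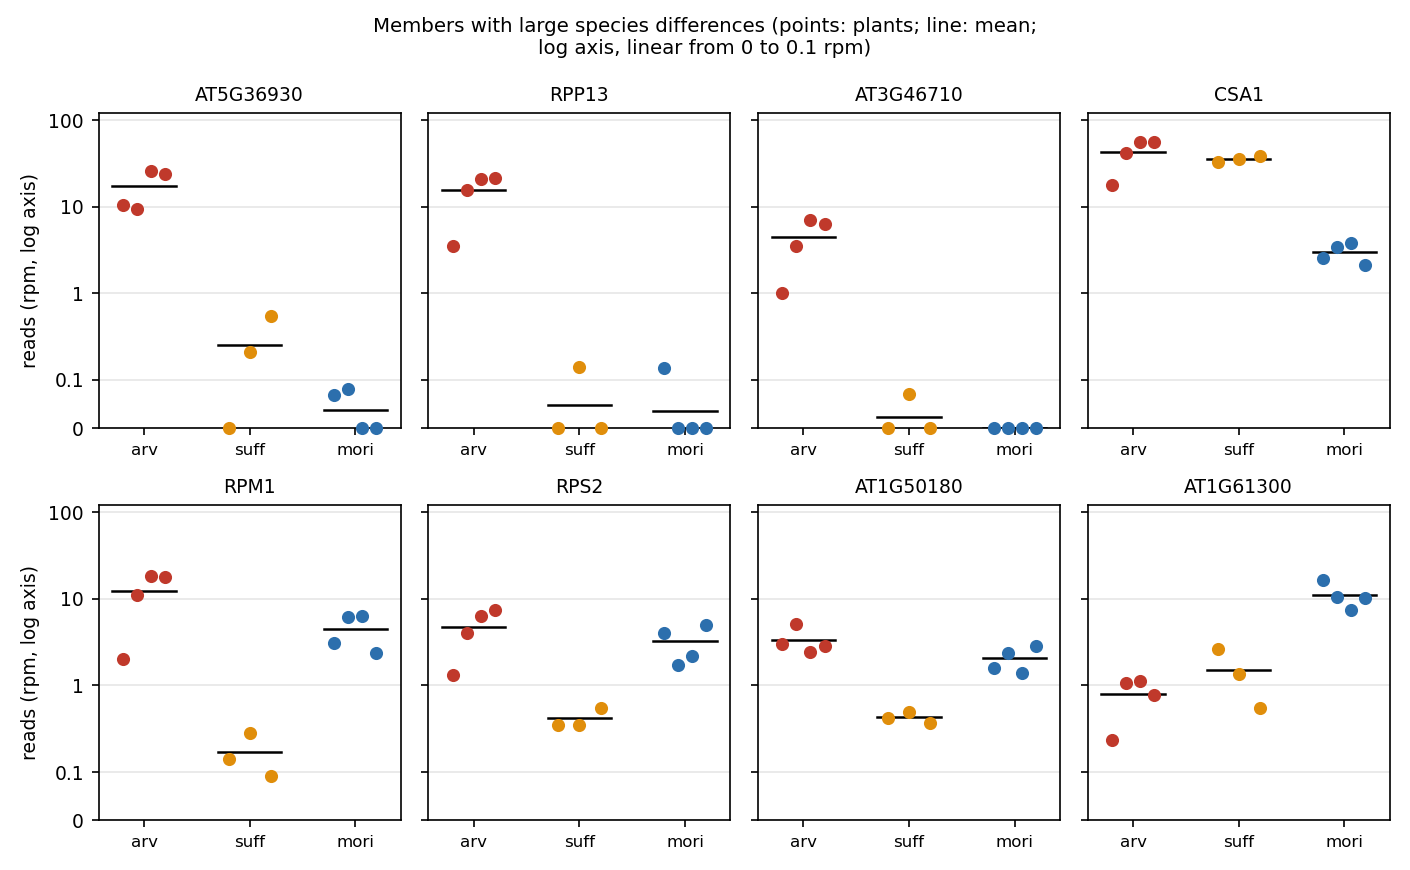
Reads of 8 members with large species differences in each plant, in rpm on a log axis that is linear from 0 to 0.1; points are plants of M. arvensis (arv), M. suffruticosa (suff) and M. moricandioides (mori), and lines are species means. AT5G36930, RPP13 and AT3G46710 are high only in M. arvensis, CSA1 is high in both intermediates, RPM1, RPS2 and AT1G50180 are low in M. suffruticosa, and AT1G61300 is high in M. moricandioides.

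Fewer members were lower in the intermediates. AT1G61180 and AT1G61300, NBS-LRR members of Arabidopsis chromosome 1 with the same best match, were lower in both. AT1G61180 was at 0.548, 4.99, 2.01 and 1.81 rpm in M. arvensis and 2.20, 2.05 and 1.09 rpm in M. suffruticosa, against 27.6, 15.9, 10.0 and 14.9 rpm in M. moricandioides. AT1G61300 was at 0.235, 1.07, 1.12 and 0.776 rpm in M. arvensis and 2.62, 1.34 and 0.546 rpm in M. suffruticosa, against 16.5, 10.4, 7.46 and 10.3 rpm in M. moricandioides. Neither intermediate overlapped M. moricandioides. The log2 fold changes were -3.02 ± 0.48 and -3.31 ± 0.54 for AT1G61180 and -3.94 ± 0.45 and -2.93 ± 0.46 (SE) for AT1G61300, M. arvensis first, with edgeR adjusted p between 3.03e-05 and 0.000761.

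The TIR member AT1G63730 was also lower in both, by -1.38 ± 0.30 and -1.4 ± 0.33 on the log2 scale (SE, edgeR adjusted p = 0.00228 and 0.00668), with 5.09 to 8.45 rpm in M. arvensis and 3.89 to 10.6 rpm in M. suffruticosa, against 11.1 to 22.8 rpm in M. moricandioides. Its M. suffruticosa call was lost without M. suffruticosa plant 6 (adjusted p = 0.0312), plant 7 (0.0381) or M. moricandioides plant 6, 8 or 12 (0.013 to 0.0192). AT1G15890, a CC member with 1 to 5 reads per plant in M. arvensis, 3 to 17 in M. suffruticosa and 10 to 32 in M. moricandioides, and AT4G23440, a TIR-NBS member, were lower in M. arvensis against M. moricandioides, at -2.89 and -2.12. The differences of both between the intermediates did not pass with edgeR (-1.48 and -1.16, adjusted p = 0.121 and 0.0826). With limma-voom AT4G23440 passed there (-1.66, adjusted p = 0.00375) and was also lower in M. suffruticosa against M. moricandioides (-1.23, 0.00673).

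AT1G61100 held more reads than any other member. It had 45.2, 63.3, 62.2 and 64.3 rpm in M. arvensis and 103, 120 and 117 rpm in M. suffruticosa, against 128, 120, 94.5 and 82.2 rpm in M. moricandioides. M. arvensis was below all plants of both other species, with log2 fold changes of -0.98 ± 0.14 to M. moricandioides and -1.005 ± 0.15 to M. suffruticosa (SE, edgeR adjusted p = 0.000132 and 0.000361). The full description of AT1G61100 names neither a TIR nor an NB-ARC domain and its best match is no member, so that it is a member by its short description alone.

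The helper receptor ADR1 (AT1G33560) had 3.99, 2.94, 2.76 and 3.28 rpm in M. arvensis and 1.35, 2.12 and 2.09 rpm in M. suffruticosa, against 0.556, 1.39, 0.290 and 0.740 rpm in M. moricandioides. M. arvensis was clear of both other species, which overlapped each other. The log2 fold change was 2.05 ± 0.41 in M. arvensis (SE, edgeR adjusted p = 0.0014), while the 1.26 of M. suffruticosa did not pass (edgeR adjusted p = 0.0434). The difference between the intermediates, 0.79, did not pass either (edgeR adjusted p = 0.158). The 2 other RPW8 members, the NRG1-type helpers AT5G66900 and AT5G66910, had 0 reads in all plants. The relatives of ADR1 are not described with the words of the member rule and were looked up from a list of known receptors. ADR1-L1 had 117, 80.9, 75.5 and 81.6 rpm in M. arvensis and 36.1, 41.4 and 65.6 rpm in M. suffruticosa, against 16.4, 12.6, 14.9 and 10.6 rpm in M. moricandioides. This was the one receptor of the helper type that passed in both intermediates (2.63 and 1.75, edgeR adjusted p = 2.64e-05 and 0.00102). ADR1-L2 and ADR1-L3 passed in M. arvensis against M. moricandioides (1.76 and 1.68) and against M. suffruticosa (1.27 and 1.67, edgeR adjusted p = 0.00843 and 0.003).

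Of the list of 38 receptors known by name, 23 were tested and 15 were listed at 0 reads. In M. arvensis against M. moricandioides 13 of the 23 (56.5%, against 18.2% of all transcripts) were higher, with a median of 1.32. In M. suffruticosa 4 were higher (17.4%, against 10.1%) and 4 lower (17.4%, against 8.82%), with a median of 0.48. M. arvensis was higher than M. suffruticosa for 8 (34.8%, against 9.4%). The 13 include ADR1-L1, ADR1-L2, ADR1-L3 and ZAR1 (AT3G50950, 1.14, edgeR adjusted p = 0.00321), which lie outside the member rule. SUMM2 (AT1G12280) and RPP2A (AT4G19500), the latter also outside the rule, passed in no comparison with edgeR. Without RPP13, which was tested because it is high in M. arvensis, 12 of 22 were higher against M. moricandioides and 7 against M. suffruticosa. No receptor of the list was lower in M. arvensis when set against M. moricandioides with edgeR at an adjusted p of 0.01, none was at an unadjusted p of 0.05, and none with DESeq2 or limma-voom.

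Outside the receptors, the dirigent-like member AT1G58170 was lower in M. suffruticosa. It had 5.71, 5.88, 5.66 and 5.78 rpm in M. arvensis and 2.55, 2.83 and 1.37 rpm in M. suffruticosa, against 5.77, 4.24, 7.53 and 8.00 rpm in M. moricandioides. The M. suffruticosa plants were below all others, with a log2 fold change of -1.59 to M. moricandioides (edgeR adjusted p = 0.00231), and M. arvensis was higher than M. suffruticosa by 1.32 (adjusted p = 0.00694). AT2G34930, an LRR protein without an NBS domain, was at 12.1, 11.1 and 10.0 rpm in M. suffruticosa, against 31.0, 27.0, 35.4 and 31.5 rpm in M. moricandioides (-1.58, edgeR adjusted p = 0.00647), while the M. arvensis plants were at 8.22, 11.9, 35.9 and 33.5 rpm. EDR2 (AT4G19040), known in Arabidopsis as a negative regulator of powdery mildew resistance, was higher in M. arvensis, at 44.0, 45.2, 63.2 and 60.5 rpm, against 38.3, 29.0, 29.1 and 25.4 rpm in M. moricandioides. Its difference was small (0.67 ± 0.17, SE, edgeR adjusted p = 0.00583), and the call was lost when any of 6 plants was left out, with an adjusted p of 0.0273 at most. BRX (AT1G31880, a regulator of root growth), a model that shares the words by a domain name, did not pass.

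A list of 26 resistance signalling genes also held FLS2, EFR, BAK1 and BIK1, so it was not confined to genes that act with NBS receptors. Of the 26, 17 were tested and 9 were listed at 0, among them EDS1 and NDR1. In M. arvensis against M. moricandioides 3 were higher and 1 lower, in M. suffruticosa 3 were higher and 2 lower, and between the intermediates 1 was lower in M. arvensis. These are 23.5%, 29.4% and 5.9% of the 17, against 35.0%, 18.9% and 19.3% of all transcripts. The medians were 0.04, 0.12 and 0.01. Leaving out 1 plant gave 3 calls in M. suffruticosa without plant 6, and 3 and 2 calls between the intermediates without M. arvensis plant 9 and M. suffruticosa plant 8. SAG101, a lipase-like partner of EDS1 in TIR signalling, had 4.70, 4.64, 5.89 and 5.69 rpm in M. arvensis and 7.29, 6.79 and 5.37 rpm in M. suffruticosa, against 1.81, 2.04, 1.01 and 1.48 rpm in M. moricandioides. Both intermediates were clear of M. moricandioides (1.604 and 1.96, edgeR adjusted p = 0.000113 and 9.51e-05). PAD4, another such partner, and AT3G48080, the second EDS1 copy of Arabidopsis, did not pass.

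CPR30 (AT4G12560), an F-box protein that limits the level of receptor proteins, was higher in both intermediates too, by 1.27 ± 0.11 and 0.89 ± 0.12 (SE). The immune kinase BIK1 was lower in both, by -1.04 ± 0.16 and -0.91 ± 0.17 (SE), with 13.3 to 23.8 rpm in M. arvensis and 17.0 to 24.04 rpm in M. suffruticosa, against 31.3 to 44.3 rpm in M. moricandioides. PBS2 (AT5G51700), a co-chaperone needed for receptor stability, was higher in M. suffruticosa by 0.86, and LSD1, which restrains cell death, was lower there by -0.93. RBOHD, the oxidase of the immune oxidative burst, passed in M. arvensis (1.64, edgeR adjusted p = 0.00743) on very unlike plants, at 14.6, 40.7, 118 and 123 rpm, against 16.8 to 23.1 rpm in M. moricandioides.

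Of 17 genes of the salicylic acid response, 6 were tested and 9 were listed at 0, PR1 among them. In M. arvensis against M. moricandioides 3 were higher and 1 lower, in M. suffruticosa 1 was lower, and M. arvensis was higher than M. suffruticosa for 3. These are 66.7%, 16.7% and 50.0% of just 6 genes, against 35.0%, 18.9% and 19.3% of all transcripts. CBP60G, a regulator of salicylic acid synthesis, had 1.49, 13.4, 33.7 and 35.3 rpm in M. arvensis and 0.354, 0.495 and 1.18 rpm in M. suffruticosa, against 1.39, 0.408, 0.435 and 2.76 rpm in M. moricandioides. ALD1, which makes the precursor of the systemic signal pipecolate, had 203, 100.7, 69.8 and 70.2 rpm in M. arvensis and 0.708, 1.34 and 0 rpm in M. suffruticosa, against 0.834, 9.38, 21.8 and 3.498 rpm in M. moricandioides. M. arvensis plant 9 was thus the lowest of its species in CBP60G, as in most NBS members, and the highest in ALD1. CBP60G of plant 9 overlapped M. moricandioides, and ALD1 did not.

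The log2 fold changes of M. arvensis over M. moricandioides were 3.79 ± 0.80 for CBP60G, 3.61 ± 0.81 for ALD1 and 2.103 ± 0.55 for the glutaredoxin AT1G03850 (SE, edgeR adjusted p = 0.00197, 0.00303 and 0.00693). Without M. moricandioides plant 8, 2 of the 17 genes passed in this comparison in place of 4, and between the intermediates 1 passed without M. suffruticosa plant 6 or 7. Against M. moricandioides 2 passed in M. suffruticosa without M. moricandioides plant 6. PBS3, an enzyme of salicylic acid synthesis, was lower in both intermediates, with 42.1 to 58.9 rpm in M. arvensis and 37.9 to 53.7 rpm in M. suffruticosa, against 122 to 199 rpm in M. moricandioides (-1.77 and -1.82, edgeR adjusted p = 6.47e-06 and 3.25e-05). NPR1, a receptor of salicylic acid, did not pass. These genes did not follow 1 order of the M. arvensis plants, since the glutaredoxin was lowest in plant 12 (0.624 rpm), and the part of a defence response in the receptor values was not tested.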

How the data were processed

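Total RNA of mature leaves of 11 plants had been sequenced as single-end reads of 100 bp. Per the labels and methods, the authors aligned the translated reads with BLAT to a reduced collection of TAIR10 Arabidopsis coding sequences, kept the best hit of each read and deposited the read counts per Arabidopsis gene model. The deposited counts are raw and not corrected for length, and reads of similar copies can go to 1 model. The submitters' processing notes name CASAVA and edgeR without versions. Rpm values were computed here as counts divided by the library total. Depths are given in the report, and intervals cover counting error only.

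Members and lists were chosen with earlier results of these data known. The edgeR quasi-likelihood test (edgeR 4.0.16, limma 3.58.1, R 4.3.3) was fitted to all 11 libraries with TMM scaling after a filter at a minimum count of 10 (15570 of 33602 models), p-values were adjusted over all models by Benjamini-Hochberg, and calls were made at an adjusted p of 0.01. Each library is 1 plant, and p-values set the difference between species against the spread between these plants. Receptor classes were read from the descriptions. Members named are those common to both intermediates, the 6 highest and 6 lowest called log2 fold changes per comparison (mean of at least 1 rpm in the higher species and no overlap of plants), the 5 with most reads, those of the known list, those with 0 reads in 1 species and at least 10 in every plant of another, and called genes of the other lists. Others were added after their values were seen, such as the RPP8 group. Alternatives were DESeq2 1.42.0, limma-voom with quality weights, other scaling, no filter, pairwise fits, a replicate block, each plant left out, NBS members alone, an adjusted p of 0.05 and, chosen after seeing the data, the close pairs summed. The fits were tested on simulated data. No sequences or gene lengths were used here. Tables and figures used Python 3.11.15, pandas 2.3.3, scipy 1.17.1 and matplotlib 3.10.9.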

Additional observations from a re-analysis of the deposited data

Results flagged for a closer look

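Among the 96 groups of 4 plants looked at, in which chance alone flags about 1 in 20, 4 had a plant far from the other plants of its species. AT1G61100 was at 45.2 rpm in M. arvensis plant 9 and at 62.2 to 64.3 rpm in the others. RPP8 (AT5G43470) was at 18.1 rpm in the same plant and at 24.1 to 24.9 rpm in the others. RLM1 (AT1G64070) was at 4.98 rpm in M. moricandioides plant 8 and at 1.88 to 2.39 rpm in the others. RPP13 (AT3G46530) had 0.139 rpm, that is 2 reads, in M. moricandioides plant 6 and 0 in the others.

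Among the members chosen by the naming rule, 8 differed from M. moricandioides unequally in the 2 intermediates, by the edgeR comparison of M. arvensis with M. suffruticosa. Other members that passed this comparison are counted in the report above and are not listed here. The log2 difference was positive for LOV1 (AT1G10920, 1.94), AT1G50180 (2.90), AT1G53350 (1.86), AT1G58602 (1.62), RPM1 (AT3G07040, 5.91), RPS2 (AT4G26090, 3.38) and AT5G48620 (1.77). It was negative for AT1G61100 (-1.005). A further 3 members chosen by the rule reached the read minimum in M. arvensis alone, so that a higher value there was fixed by the filter. They were RPP13 (7.88), AT3G46710 (6.88) and AT5G36930 (6.06). Their values are a description and depend on the prior count.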

How the results depend on the processing

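No called log2 fold change of a named member changed sign under an alternative that gave a value, and AT1G15890 gave none in the pairwise fits. Members called in M. arvensis against M. moricandioides, 48 at first, were 12 with a replicate block and 40 to 51 with 1 plant left out. In M. suffruticosa against M. moricandioides the 26 members became 1 with the replicate block, 13 with close pairs summed, 43 at an adjusted p of 0.05, and 17 to 29 with 1 plant left out. Between the intermediates the 22 became 0 with the replicate block, 64 with limma-voom, 12 with close pairs summed, 38 at an adjusted p of 0.05, and 15 to 24 with 1 plant left out. The 12 members common to both intermediates became 1 with the replicate block and 9 to 14 with 1 plant left out. Clusters went to 12, 1 and 0 with the replicate block in the 3 comparisons (41, 23 and 20 otherwise), and to 37 to 45, 15 to 25 and 15 to 23 with 1 plant left out. DESeq2 called 50, 33 and 33 members.

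Signalling genes in M. arvensis against M. moricandioides (4) became 8 with DESeq2, 8 with limma-voom, 8 at an adjusted p of 0.05 and 1 with the replicate block, with 3 to 5 when 1 plant was left out. In M. suffruticosa (5) they became 8 with limma-voom, 0 with the replicate block, 3 with close pairs summed and 8 at 0.05, with 3 to 6 when 1 plant was left out. Between the intermediates (1) they became 6 with DESeq2, 8 with limma-voom, 0 with the replicate block, 0 with close pairs summed and 6 at 0.05, with 1 to 3 when 1 plant was left out. Salicylic acid genes in M. arvensis (4) became 1 with the replicate block, and 2 to 4 with 1 plant left out. In M. suffruticosa (1) they became 2 with DESeq2, 0 with the replicate block and 2 at 0.05, and 1 to 2 with 1 plant left out. Between the intermediates (3) they became 0 with the replicate block and 1 with close pairs summed, and 1 to 3 with 1 plant left out. The replicate block leaves few degrees of freedom. Over all tested transcripts, plants with the same number did not deviate together (r = 0.01 to 0.029). The labels do not say that the numbers pair plants. An effect shared by a smaller part of the transcripts would not be seen in this check. Where no construction is named, the cause was not tested.

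The values rest on 3 or 4 plants of 1 seed stock per species, on Arabidopsis models, and on low counts for many members. Reads of similar copies cannot be assigned with certainty, and a member listed at 0 cannot be called silent.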
